A study of Mus musculus with 4 samples.

Results

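Interferon-high stem cells were the marrow cells that carried transcripts of blood stem cell genes and of antiviral genes at once. A cell was counted when it held at least as many unique molecular identifiers (UMIs, each standing for 1 captured RNA molecule) as the shallowest control cell, a UMI of at least 3 of 8 stem cell genes (Hlf, Mecom, Procr, Ly6a, Pdzk1ip1, Fgd5, Hoxb5 and Slamf1) and a UMI of at least 3 of 4 interferon-stimulated genes (Ifit1, Rsad2, Iigp1 and Ifi44). The rule found 118 cells among 11764, of which 13 came from control mice and 105 from mice bearing leukemia. The cells were thus chosen on measured values, and the levels of those 12 genes are given as a description.

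The study asked what an environment of B-cell acute lymphoblastic leukemia (B-ALL) does to the stem cells of the host. Wild-type CD45.1 mice received, through the tail vein, either phosphate-buffered saline (PBS control) or 150000 primary tumor cells (B-ALL environment), and marrow was taken 3 weeks later. The tumor cells came from a lymph node of a single leukemic Cd45.2+/+ Ebf1+/- Pax5+/- mouse, so the B-ALL group stands for 1 tumor in wild-type hosts. KIT+ Lin- CD45.2- CD45.1+ host cells were sorted and sequenced from the 3' end of their transcripts with droplet barcodes. The labels name 4 samples, 2 a group, but the cells carry only a group prefix. Each group was therefore 1 sample: no p-value can be given, and every interval below is a 95% interval that covers counting error only.

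Interferons are cytokines released when cells sense viruses, microbes or displaced nucleic acid. Type I interferon binds the receptor pair Ifnar1 and Ifnar2, the kinases Jak1 and Tyk2 pass the signal to transcription factors, and a complex that holds Stat2 and Irf9 binds a DNA element called ISRE. Interferon gamma acts mainly through a second element called GAS. In the marrow, interferon can bring quiescent stem cells into cycle, and prolonged exposure is known to impair their ability to rebuild blood. Ly6a, which encodes the surface protein Sca-1, is both a stem cell marker and an interferon-induced gene.

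Promoters of some genes named in this report are shown, picked among those in which an element was found. Other genes looked at, among them Ifi44, Ly6a, Irf7, Oasl2 and Ifitm3, gave no such stretch before the start. Each stretch below is from the RefSeq promoter table (GRCm38.p6), is written 5' to 3' on the strand of the gene, and has 1 element in capitals. The Ifit1 and Isg15 stretches hold further ISRE matches that are not marked. ISRE was searched as GAAA, any 2 bases and GAAA, and GAS as TTCNNNGAA, on both strands, from 250 bases before to 50 after each start, so TTTCACTTTC is an ISRE read from the other strand. A match describes the letters and does not show binding.
Ifit1, chr19:34640765-34640814, plus strand: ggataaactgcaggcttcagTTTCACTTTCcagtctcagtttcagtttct
Rsad2, chr12:26456543-26456592, minus strand: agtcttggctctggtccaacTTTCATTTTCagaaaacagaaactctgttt
Isg15, chr4:156200861-156200910, minus strand: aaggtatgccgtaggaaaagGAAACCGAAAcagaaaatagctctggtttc
Gbp2, chr3:142620584-142620633, plus strand: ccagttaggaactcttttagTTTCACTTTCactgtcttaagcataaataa
Cxcl10, chr5:92349073-92349122, minus strand: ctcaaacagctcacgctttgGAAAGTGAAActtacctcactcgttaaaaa
Serpina3g, chr12:104236094-104236142, plus strand: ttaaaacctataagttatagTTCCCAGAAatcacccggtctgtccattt

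An ISRE lay in the promoter window of 10 of 11 matched interferon-inducible GTPase genes, and a GAS in 7 of the same 11. Among the type I interferon response genes outside the rule, 20 of 45 matched genes (44.4%) held an ISRE and 5 held a GAS. The IFITM and Serpina3 genes were the other way round, with a GAS in 4 of 6 and an ISRE in 2 of 6. Of the 4 interferon genes of the rule, 3 were matched and 2 of them held an ISRE. Across all 27025 RefSeq genes of the table, 3.99% held an ISRE and 9.55% a GAS.

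The 2 groups had equal numbers of cells, 5882 each, and similar medians of 10189 and 10458 UMIs a cell in control and B-ALL. The interferon-high cells differed more in depth: they held a median of 6511 UMIs (4616 to 17539) in control and 9574 (3177 to 31389) in B-ALL, and 99786 and 1140972 UMIs in all. No interferon-high cell shared its barcode with a cell of the other group, although 18 barcodes occurred in both. In B-ALL, 190 cells lay below the depth of the shallowest control cell, and 1 of them met both gene rules.

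Interferon-high cells were a small share of stem-gated cells (those with at least 3 of the 8 stem cell genes) in both groups. In control they were 13 of 444 stem-gated cells (2.93%, exact Clopper-Pearson interval 1.57 to 4.95). In B-ALL they were 105 of 2137 (4.91%, 4.04 to 5.92). The ratio of the shares was 1.68, the odds ratio was 1.71, and its exact interval of 0.948 to 3.36 included 1. Of all cells with enough UMIs, they made up 0.221% in control and 1.84% in B-ALL, a ratio of 8.35, while the stem-gated share itself was 7.55% and 37.5%. A sort on Lin- KIT+ fixes neither the number of stem cells in the marrow nor their share of it, so these are shares of sorted cells.

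The direction of the share depended on how the cells were counted. With all 4 interferon genes required, the share was 1.58% in control and 1.12% in B-ALL (ratio 0.712). With Ifit3, Isg15, Oasl2 and Usp18 in place of the 4 genes, it was 2.48% and 1.54% (ratio 0.623). After every cell was thinned to the UMIs of the shallowest control cell, it was 3.23% and 2.23% (ratio 0.693, medians of 20 draws), and B-ALL was higher in 2 of the 20 draws. Among cells with at least 10000 UMIs, in contrast, it was 2 of 155 (1.29%) and 49 of 1051 (4.66%). A difference in the frequency of these cells between the groups was therefore not detectable apart from the rule and the depth.

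The number of interferon genes per stem-gated cell had a different shape in the 2 groups. In control, 64.2% of stem-gated cells had a UMI of none of the 4 genes, 26.6% of 1, 6.31% of 2, 1.35% of 3 and 1.58% of 4. In B-ALL the shares were 51.7%, 31.4%, 11.98%, 3.79% and 1.12%. Cells with 1 to 3 genes were thus more frequent in B-ALL, and those with all 4 were not. Stem-gated cells that were not interferon-high had median depths of 8151 UMIs in control and 9841 in B-ALL. The part of depth in this shape was not tested. Among the interferon-high cells, 7 of 13 control cells (53.8%) and 24 of 105 B-ALL cells (22.9%) had all 4 genes.

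**Figure D1:**
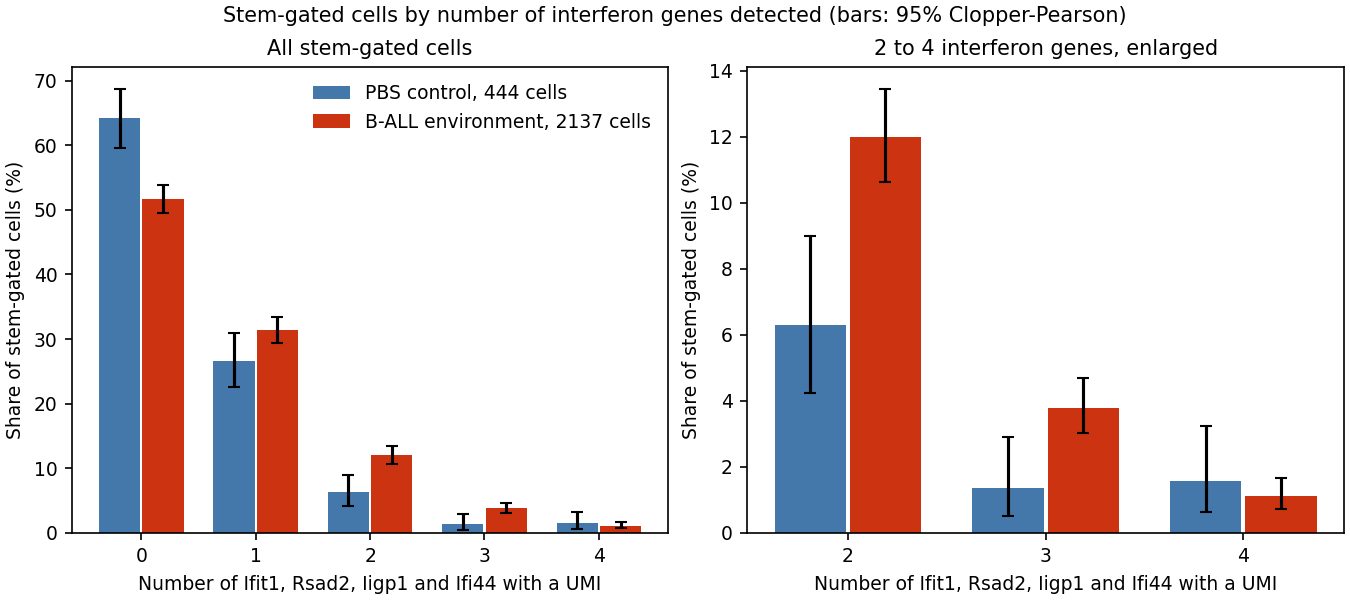
Share of stem-gated cells (percent, with 95% exact binomial intervals) by the number of the 4 rule interferon genes with a UMI, in 444 PBS control and 2137 B-ALL environment cells. Cells with 2 genes are 6.31% and 11.98%, whereas cells with all 4 are 1.58% and 1.12%.

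Stem cell genes that the rule did not use were measured in both groups. Summed over 23 such genes, the level was 2416 CPM (UMIs per 1000000, after TMM scaling, which adjusts the totals so that most genes keep their level between libraries) in interferon-high control cells, against 1950 in the other control stem cells. In B-ALL it was 2698 against 2281. The other stem cells passed the same gate, so these sums cannot check the stem cell label. Per-cell scores of these genes, in the units defined below, had medians of 26.3 and 29.2 in interferon-high control and B-ALL cells. Cells outside the gate that were not interferon-high had medians of 4.77 and 8.42. Mllt3, Ltb and Angpt1, given next, were picked after their values were seen. Mllt3, which maintains human stem cells in culture, had 113.7 and 190.2 CPM in interferon-high control and B-ALL cells and 69.2 and 95.6 CPM in other stem cells. Ltb, a lymphotoxin subunit, had 274.7 and 332.5 CPM against 73.9 and 179.9 CPM. Angpt1, a niche factor that stem cells make, went the other way in control, with 360.0 CPM in interferon-high and 526.9 CPM in other stem cells.

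Detection of the rule genes was also counted in cells of other lineages, where free RNA and the cells' own expression cannot be told apart. Those cells were taken from outside the stem gate, which lowers their shares for stem genes by construction. The interferon-high cells were chosen for holding these genes, so their own shares are a description. Ly6a was seen in 84.6% and 85.7% of interferon-high control and B-ALL cells, in 0.6% of 1230 and 0.0% of 154 cells with erythroid markers, and in 3.5% of 2153 and 11.8% of 1143 cells with neutrophil progenitor markers. Median depths were 10534 and 15918 UMIs in the erythroid and 14501 and 18564 UMIs in the neutrophil progenitor cells, above those of the interferon-high cells. Hlf, a transcription factor of immature stem cells, was seen in 92.3% and 96.2% of interferon-high cells, 10.0% and 15.6% of erythroid cells and 27.1% and 35.8% of neutrophil progenitor cells. Some stem genes of the rule were common in erythroid cells too. Pdzk1ip1 was seen in 76.9% and 80.0% of interferon-high cells but also in 30.4% and 27.3% of erythroid cells. Slamf1 was seen in 7.7% and 32.4% of interferon-high cells and in 15.9% and 26.0% of erythroid cells, and the control value is 1 of 13 cells. Iigp1 was seen in 76.9% and 87.6% of interferon-high cells, 12.5% and 20.1% of other stem cells, 1.7% and 0.6% of erythroid cells and 0.6% and 1.4% of neutrophil progenitor cells.

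Markers of other cell types ranged from none to nearly every cell, depending on the list. At least 3 multipotent progenitor markers were present in 12 of 13 control cells (92.3%) and 97 of 105 B-ALL cells (92.4%), against 96.5% and 96.9% of other stem cells. No interferon-high cell in either group had 3 or more of the 4 B cell markers or of the 5 basophil and mast cell markers measured. Of the B cell markers, 3 were at 0 UMIs in the control cells and none in those of B-ALL. In B-ALL, 1 cell had 3 or more of the 8 erythroid markers and 1 had 3 or more of the 4 T and NK cell markers, against 0 in control. At least 3 megakaryocyte markers, of 11 measured, were present in 4 of 13 control cells (30.8%) and 34 of 105 B-ALL cells (32.4%), close to the 28.3% and 32.5% of other stem cells. Neutrophil progenitor markers differed between the groups: 11 of 13 control cells (84.6%) and 14 of 105 B-ALL cells (13.3%) had at least 3, with medians of 15.2 and 8.16 UMIs per 10000. Other stem cells showed the same gap, at 82.8% and 20.2%, and the part of this RNA in the comparisons between groups was not tested.

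Single cells carried some of the sums. Of 236 Pf4 UMIs (a platelet chemokine) in control interferon-high cells, 226 were in 1 cell, which also held 6 of the 10 Vwf UMIs and 23 of the 24 Cxcl10 UMIs. In B-ALL, 4424 of 4439 Hbb-bs UMIs (adult beta globin) were in 2 cells. Those genes describe the named cells and not the class.

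Summed over cells, interferon-high stem cells differed from other stem cells by a broad antiviral program beyond the rule, which was larger in control. The rule chose cells within this contrast, so the values over other stem cells are a description. Not every cell showed the program. Per-cell type I scores, defined below, began at 21.0 in B-ALL interferon-high cells, with a lower quartile of 34.3. The upper quartile of other B-ALL stem cells was 33.1. The same rule was applied at unequal depth, with medians of 6511 UMIs in control and 9574 in B-ALL. The part of depth in the larger control values was tested only in part. Of 46 type I response genes tested in both groups, 44 were higher in interferon-high than in other stem cells in both, and 23 were past 2-fold in both, where 21.5% and 0.948% of all 10654 genes were. Past 2-fold with an interval that left out 1, 2.43% of all genes were higher and 1.99% lower in control, and 2.51% and 1.04% in B-ALL. The summed type I level outside the rule was 8506 CPM in interferon-high and 2468 CPM in other stem cells of control, a log2 difference of 1.79. In B-ALL it was 4730 and 2451 CPM, a log2 difference of 0.95. The interferon-inducible GTPases, which attack the vacuoles of intracellular microbes, differed by 2.73 in control and 1.11 in B-ALL on the log2 scale.

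Named genes of that program had these levels in interferon-high and other stem cells. Isg15, a ubiquitin-like modifier, had 303.1 and 29.7 CPM in control and 127.7 and 22.1 CPM in B-ALL. Slfn5, a Schlafen family member, had 303.1 and 18.3 CPM in control and 97.7 and 17.7 CPM in B-ALL. Irf7, the factor that amplifies interferon production, had 274.7 and 18.0 CPM in control and 52.3 and 11.1 CPM in B-ALL. For Slfn5 the other stem cells of both groups were near each other, and the interferon-high cells were far apart. Ifit3, which partners Ifit1 on foreign RNA, had log2 differences of 6.45 in control and 5.14 in B-ALL on only 9 and 22 UMIs.

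Per cell, the type I score, in UMIs per 10000 UMIs of the cell and without the rule genes, ranged from 23.8 to 234 with a median of 67.9 in control and from 21.0 to 166 with a median of 45.3 in B-ALL. Other stem cells had medians of 24.1 and 25.02. The groups overlapped, and 10 of 13 control cells lay above the B-ALL median. The 3 highest control cells had 234, 203 and 141, and the lowest, at 23.8, was close to the median of other stem cells. For GTPases the medians were 18.5 (3.68 to 60.0) and 8.40 (0 to 48.5), against 3.40 and 3.87 in other stem cells. MHC class I presentation genes had medians of 95.4 and 69.7, against 67.0 and 65.3.

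The 13 control cells were unlike one another. Iigp1, the GTPase of the rule, had 32, 28, 26, 21 and 14 UMIs in 5 of them and 0 to 4 in the others. Type I scores in those 5 cells were 83.2, 63.7, 203, 234 and 67.9, so each was above the B-ALL median. Gbp2 had 15 of its 33 control UMIs in 1 cell, and Isg15 had 14 of 32 in 2 cells.

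The same scores were compared among shallower cells, because the interferon-high cells of the groups differed in depth. Among interferon-high cells with fewer than 10000 UMIs, 11 from control and 56 from B-ALL, median depths were 6075 and 7242. There the type I medians were 63.7 and 53.6, the GTPase medians 14.98 and 11.0, and the MHC class I medians 95.4 and 77.0. The control cells remained higher by these medians, with smaller gaps, and the rest of the depth difference was not tested.

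**Figure D2:**
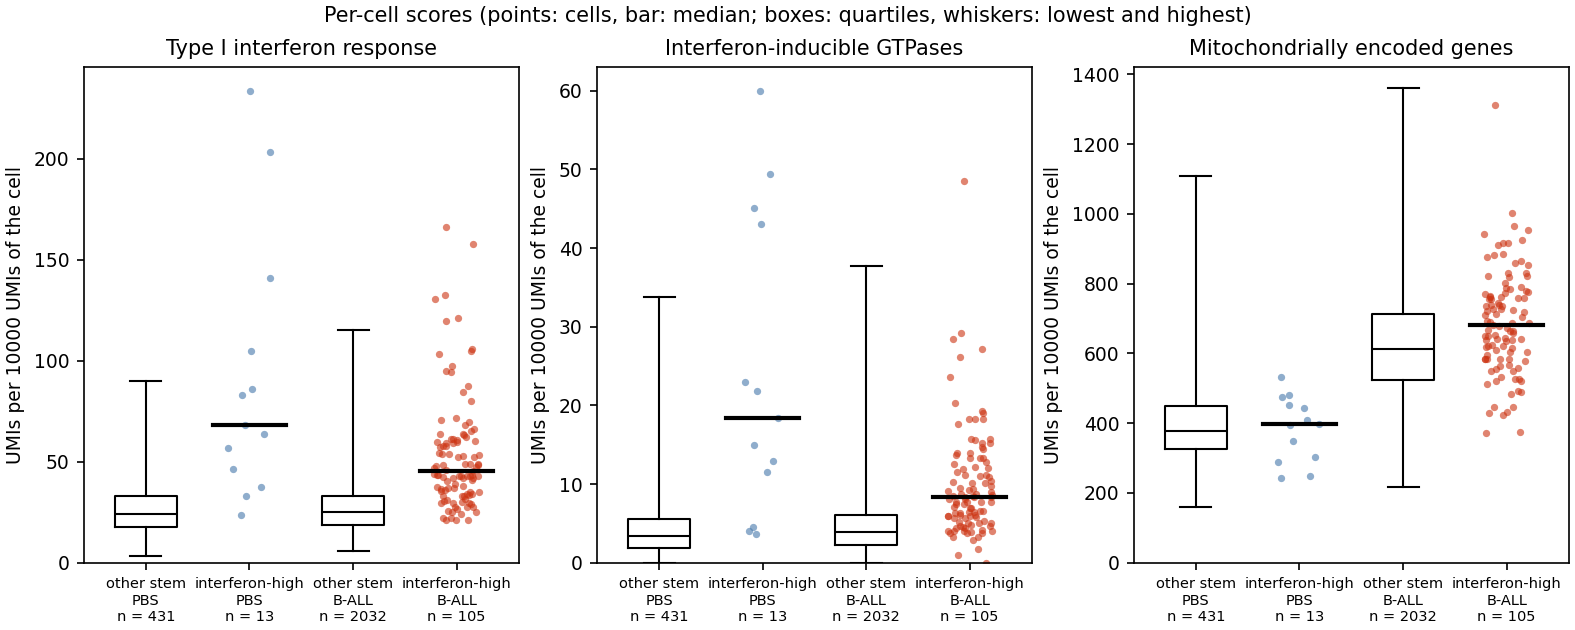
Per-cell scores in UMIs per 10000 UMIs for type I interferon response genes and interferon-inducible GTPases (both without the rule genes) and for mitochondrially encoded genes. Points are interferon-high cells (13 control, 105 B-ALL), bars their medians, and boxes with whiskers give quartiles and full range of other stem cells: medians are 67.9 and 45.3, 18.5 and 8.40, and 396.7 and 681.

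Type I and GTPase medians increased with the number of rule interferon genes in both groups. From 0 to 4 genes the type I median was 21.4, 27.8, 44.0, 47.3 and 83.2 in control and 22.4, 26.5, 32.1, 42.9 and 63.3 in B-ALL. The GTPase median reached 43.1 in control cells with all 4 genes and 14.2 in those of B-ALL. MHC class I medians had no such steady order, at 65.1, 71.0, 74.8, 103.0 and 81.0 in control and 63.1, 66.6, 70.0, 68.9 and 71.7 in B-ALL. The control values at 3 and 4 genes rest on 6 and 7 cells. Cells just outside the threshold, with 2 genes, thus had type I medians of 44.0 and 32.1 against 47.3 and 42.9 just inside it. Cells with at least 3 interferon genes but only 2 stem cell genes, 6 in control and 16 in B-ALL, had medians of 68.3 and 42.1.

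Interferon genes were also found together outside the stem gate. At least 3 interferon genes were found in 25 of 5438 such cells in control (0.460%) and 23 of 3555 in B-ALL (0.647%). Of all cells with at least 3 interferon genes, 13 of 38 in control (34.2%) and 105 of 128 in B-ALL (82.0%) passed the stem gate, beside stem-gated shares of 7.55% and 37.5% of all cells. The cells outside the gate had type I medians of 76.9 in control and 39.3 in B-ALL, with control the higher of these medians as among interferon-high stem cells.

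Cell cycle scores were lower at 4 than at 0 interferon genes in both groups, though not at every step in control. From 0 to 4 genes the S phase median was 54.5, 42.4, 25.4, 20.95 and 21.4 in control and 55.3, 45.7, 30.2, 27.6 and 23.4 in B-ALL. G2/M medians were 43.9, 42.6, 26.9, 35.0 and 27.2 in control, with a higher value at 3 genes than at 2, and 44.3, 36.5, 31.6, 27.4 and 25.1 in B-ALL. Median depth in control was 8268, 8619, 6112, 6236 and 7764 UMIs, lower at 2 genes and beyond, while in B-ALL it stayed between 9538 and 9916 UMIs. The part of depth in the control scores was not tested.

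**Figure D3:**
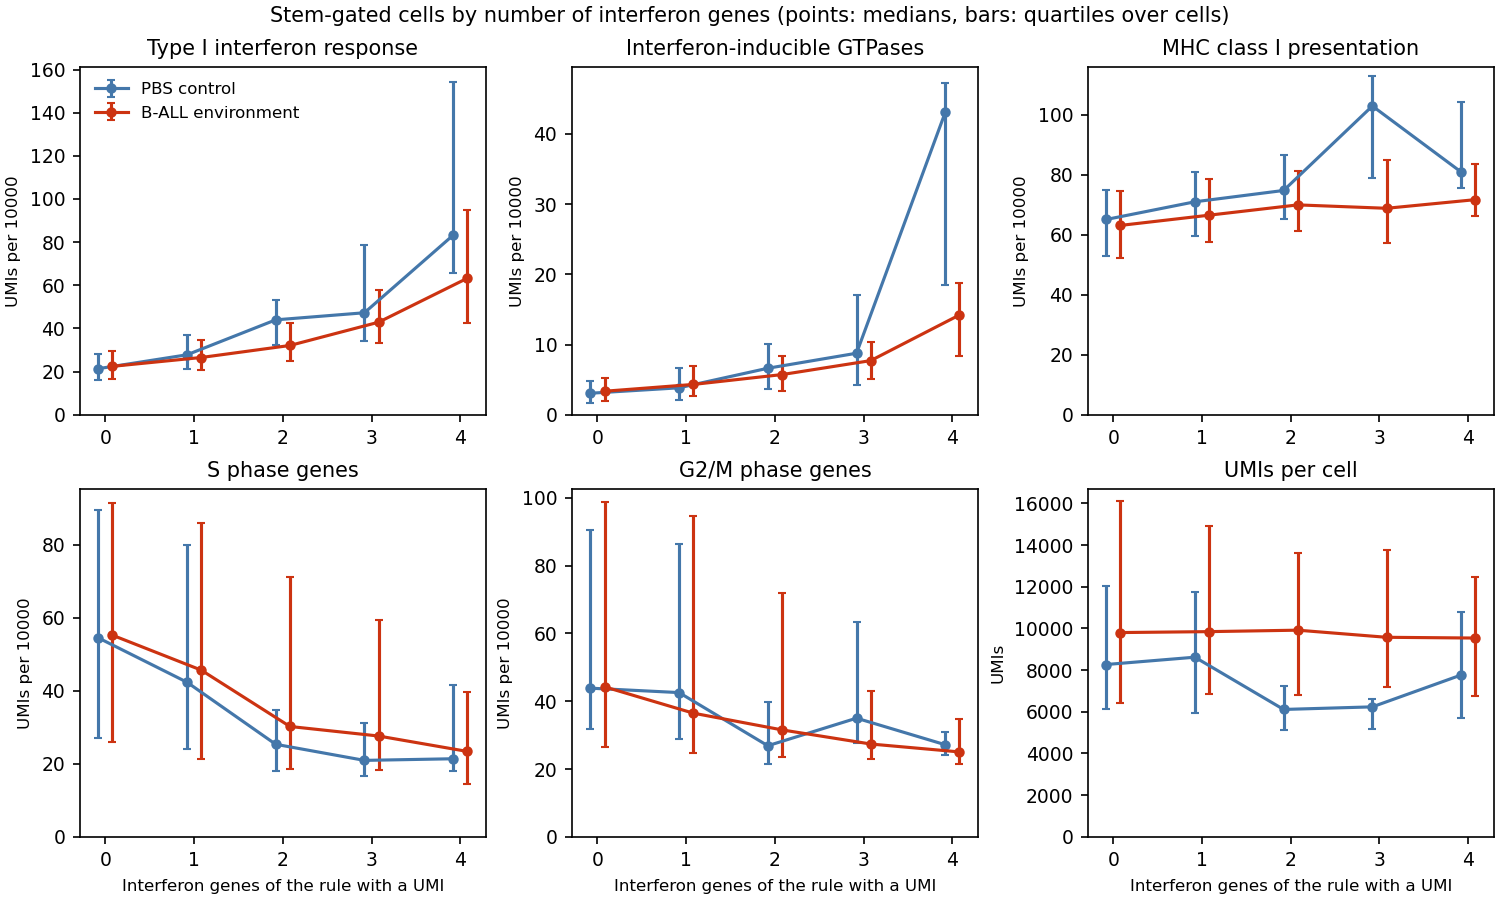
Medians with quartiles over stem-gated cells, by number of rule interferon genes with a UMI, for 5 gene scores in UMIs per 10000 and for UMIs per cell, control and B-ALL drawn apart. Type I medians climb from 21.4 to 83.2 in control and from 22.4 to 63.3 in B-ALL, while S phase medians drop from 54.5 to 21.4 and from 55.3 to 23.4.

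The comparison the design implies is B-ALL environment over PBS control within the interferon-high cells. Interferon-response genes were lower there in B-ALL, with guanylate binding proteins, Zbp1 and Irf7 among the wider gaps. Of 46 tested type I response genes outside the rule, 44 were lower and 2 higher, where 50.7% of all 8605 genes tested were higher. Past 2-fold, 19 were lower, against 6.22% of all genes, and 15 of these had an interval below 1, against 2.25%. Their median log2 fold was -0.89, where that of all genes was 0.05. The summed level was 8506 CPM in control and 4730 CPM in B-ALL, a log2 fold of -0.85 (-0.95 to -0.74). In the other stem cells the same sum was 2468 and 2451 CPM, a log2 fold of -0.01 (-0.04 to 0.02). The control sum of interferon-high cells was spread unevenly, which its interval does not cover. The highest per-cell type I scores were 234 and 203, beside medians of 67.9 in control and 45.3 in B-ALL. The deepest control cell, with a score of 83.2, held 17539 of the 99786 control UMIs. The fold without these cells together was not computed.

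All 16 tested GTPases outside the rule were lower in B-ALL interferon-high cells, 13 of them past 2-fold, with a median log2 fold of -1.52. Of all genes, 6.22% were lower past 2-fold. Their sum was 2482 CPM in control and 885.1 CPM in B-ALL, a log2 fold of -1.49 (-1.68 to -1.29), or -1.20 without the single Pf4-bearing control cell. Gbp2, a guanylate binding protein whose promoter is shown above, had 33 UMIs in 9 of 13 control cells (312.6 CPM) and 55 UMIs in 40 of 105 B-ALL cells (47.1 CPM). Its log2 fold was -2.73 (-3.38 to -2.06), whereas other stem cells had 20.7 and 29.8 CPM. Gbp6 had 16 UMIs in 7 control cells and 11 UMIs in 11 B-ALL cells, a log2 fold of -4.01 (-5.26 to -2.81). Irgm2, an immunity-related GTPase, had 113.7 and 27.4 CPM, a log2 fold of -2.05 (-3.05 to -0.96). Gm4951, of the same class, had 284.2 and 96.8 CPM in interferon-high cells and the opposite order, 4.39 and 13.7 CPM, in other stem cells.

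Among transcription factors of the pathway, 5 of 9 tested were lower past 2-fold, against 6.22% of all genes, and none was higher past it. Stat2 had 142.1 and 39.4 CPM and Irf7 had 274.7 and 52.3 CPM, with log2 folds of -1.85 and -2.39. Irf9, the DNA-binding partner of Stat2, had 85.3 and 128.5 CPM, and its log2 fold of 0.59 (-0.37 to 1.75) had an interval that included 0. Irf8, a myeloid factor, had 104.2 and 27.4 CPM, yet in the thinned cells its log2 fold was 0.53.

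Receptors and kinases at the head of the pathway showed no such gap. Of 8 tested, 3 were higher and 5 lower, and none was past 2-fold. Ifnar1 and Ifnar2 had log2 folds of 0.31 (-1.12 to 2.24) and 0.32 (-0.60 to 1.41), and Jak1 had -0.11 (-0.63 to 0.45). The intervals of the receptors are wide, since control cells held only 4 and 10 of their UMIs. The genes of the interferons themselves were not analysed here.

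Effector genes of the response were lower too. Isg15 had 32 control and 149 B-ALL UMIs, a log2 fold of -1.25 (-1.81 to -0.65), and Oasl2, a sensor of double-stranded RNA, had 31 and 222 UMIs, a log2 fold of -0.63 (-1.17 to -0.04). Ifit2 had a log2 fold of -1.85 (-2.75 to -0.86) on 14 and 43 UMIs. Within the type I genes, the list of OAS, MX and other antiviral genes, among them the OAS enzymes that sense double-stranded RNA, had 8 of 9 genes lower, 4 of them past 2-fold, and a summed log2 fold of -0.65 (-0.93 to -0.35). Zbp1, a sensor of Z-form nucleic acid, had the largest fold of the named members of that list, -2.41 (-3.45 to -1.28). In MHC class I presentation, 18 of 20 genes were lower and 5 were past 2-fold. Beside this list and the OAS and MX list, 6.22% of all genes were lower past 2-fold. Psmb8, an immunoproteasome subunit, had 975.7 and 461.0 CPM, a log2 fold of -1.08 (-1.39 to -0.76). Tap1, the peptide transporter, had 236.8 and 99.4 CPM, a log2 fold of -1.25 (-1.89 to -0.57). The class I heavy chain H2-K1 and B2m, which carry the peptide to the surface, had log2 folds of -0.11 and 0.02, with intervals that included 0.

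The rule genes, whose detection chose the cells, had these values. Iigp1 had 131 UMIs in 10 of 13 control cells and 232 UMIs in 92 of 105 B-ALL cells, or 1241 and 198.8 CPM. Rsad2 (viperin) had 397.8 and 158.5 CPM, and Ifi44 had 530.5 and 142.2 CPM. Ifit1, which binds foreign RNA, had 331.5 and 225.4 CPM. Control was highest for each of the 4, by the widest margin for Iigp1, of which 60 control UMIs were in 2 cells. Among the stem cell genes of the rule, Hlf had 445.2 and 497.0 CPM and Mecom 180.0 and 182.5 CPM.

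Sensors of nucleic acid and other stress pathways showed smaller summed gaps than the type I and GTPase genes. Of 11 tested sensors and adaptors of nucleic acid, 4 were higher and 6 lower, none of these past 2-fold, and 1 had no UMI in the control cells and so no fold. Samhd1, which depletes nucleotides, had 208.4 and 114.8 CPM, a log2 fold of -0.86 (-1.52 to -0.14), and Cgas, the DNA sensor, had 123.1 and 61.7 CPM. For TNF and NF-kB response genes the summed log2 fold was 0.18 (-0.17 to 0.54), and for p53 targets and cell death genes it was 0.04 (-0.25 to 0.35). Both intervals included 0.

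**Figure D4:**
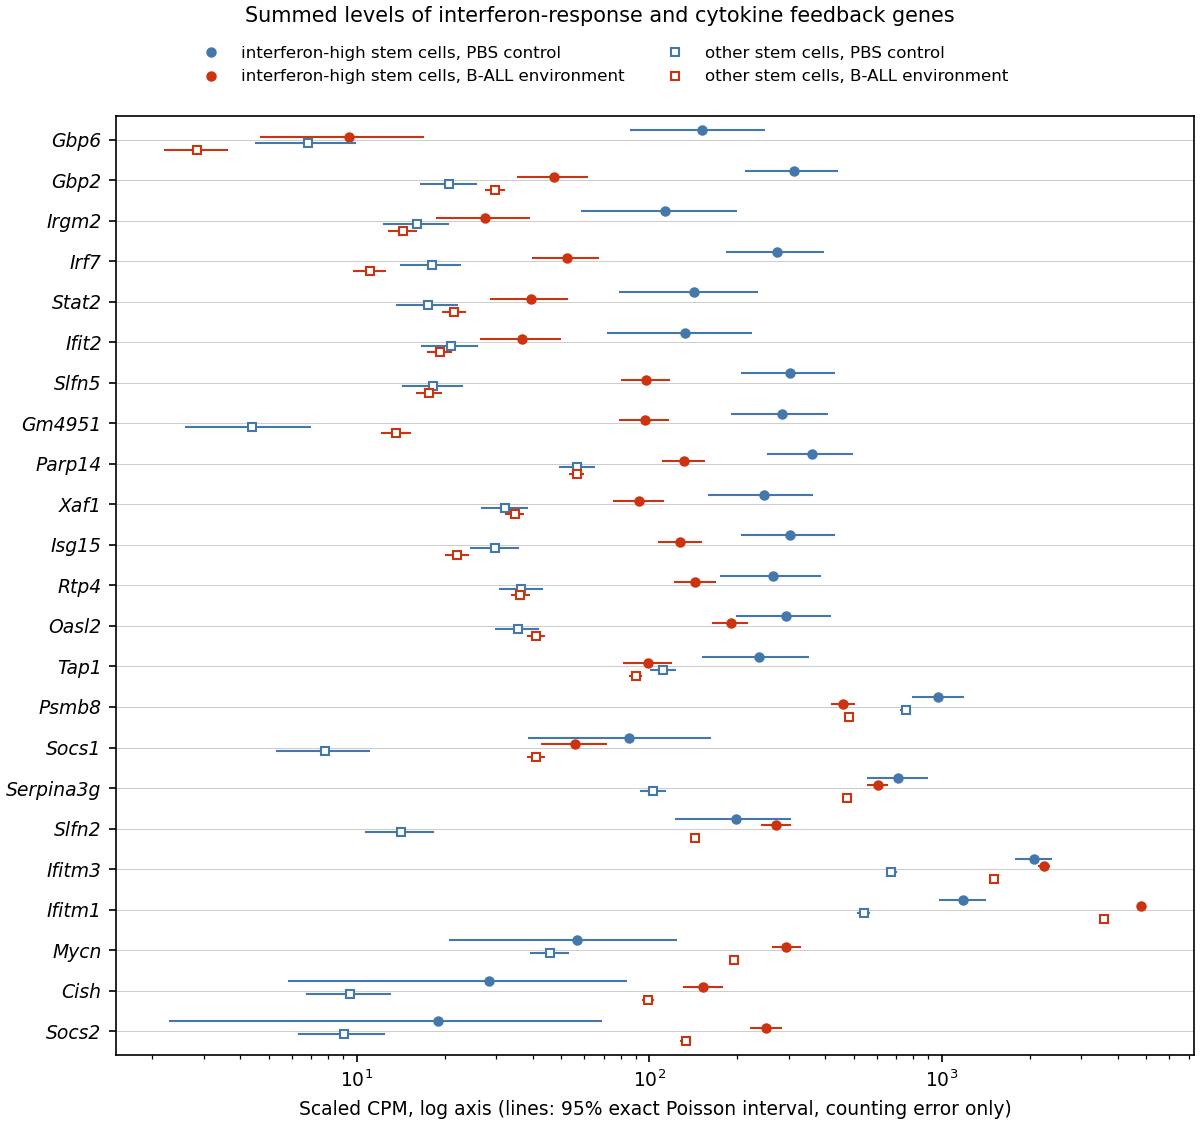
Summed levels in scaled CPM on a log axis of 23 genes, with 95% exact Poisson intervals, in interferon-high (circles) and other (squares) stem cells of the 2 groups. Gbp2 and Irf7 are highest in control interferon-high cells, whereas Socs2, Cish and Ifitm1 are higher in B-ALL in both cell classes.

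Some interferon-inducible genes of the IFITM, Serpina3 and Schlafen families did not follow this order, and others did. Of 5 tested IFITM and Serpina3 genes, 3 were higher and 2 lower in B-ALL interferon-high cells. Of 4 tested Schlafen genes, 2 were higher and 2 lower. Among all 8605 genes tested there, 50.7% were higher, so these counts do not set the families apart from other genes. In other stem cells 6 of 6 IFITM and Serpina3 genes were higher, but the share of all genes higher in that class was not counted. Serpina3f, with 9 and 41 UMIs, had a log2 fold of -1.28 (-2.34 to -0.05), and Slfn5 had -1.63 (-2.21 to -1.02), so both were lower past 2-fold. The genes described next were picked from these lists after their values were seen. Serpina3g, a protease inhibitor, had 75 UMIs in control and 707 in B-ALL interferon-high cells, or 710.4 and 605.8 CPM. Of its control UMIs, 18, 18 and 17 were in 3 cells. Its log2 fold was -0.23 (-0.58 to 0.13), while in other stem cells it had 103.4 and 474.0 CPM, a log2 fold of 2.20 (2.06 to 2.34). Ifitm3, a membrane protein that blocks virus entry, had 2065 and 2242 CPM in interferon-high cells and 673.9 and 1510 CPM in other stem cells. The log2 folds were 0.12 (-0.08 to 0.33) and 1.16 (1.11 to 1.22). Slfn2, which keeps lymphocytes quiescent, had 198.9 and 271.6 CPM against 14.1 and 143.7 CPM, with log2 folds of 0.45 (-0.19 to 1.16) and 3.35 (2.97 to 3.75). Its control value rests on 21 UMIs in 4 of 13 cells, 17 of them in 2 cells.

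The gap between interferon-high and other stem cells was wider in control than in B-ALL for both family lists as sums. The log2 difference was 1.18 in control and 0.38 in B-ALL for IFITM and Serpina3 genes, and 2.20 and 0.91 for Schlafen genes. Serpina3f had 5.28 and 1.17, and Slfn5 had 4.05 and 2.47, whereas Slfn9 had -0.10 and 0.06. For Serpina3g the log2 difference between the cell classes was 2.78 in control and 0.35 in B-ALL. For Ifitm3 it was 1.62 and 0.57, and for Slfn2 it was 3.81 and 0.92. Ly6a, a gene of the rule, had 265.2 and 245.9 CPM in interferon-high cells against 73.6 and 115.1 CPM in other stem cells. Serpina3g, Ifitm3 and Slfn2 were picked after their values were seen, and how many of all genes differ as much between the classes was not counted. No test over mice can be made.

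**Figure D5:**
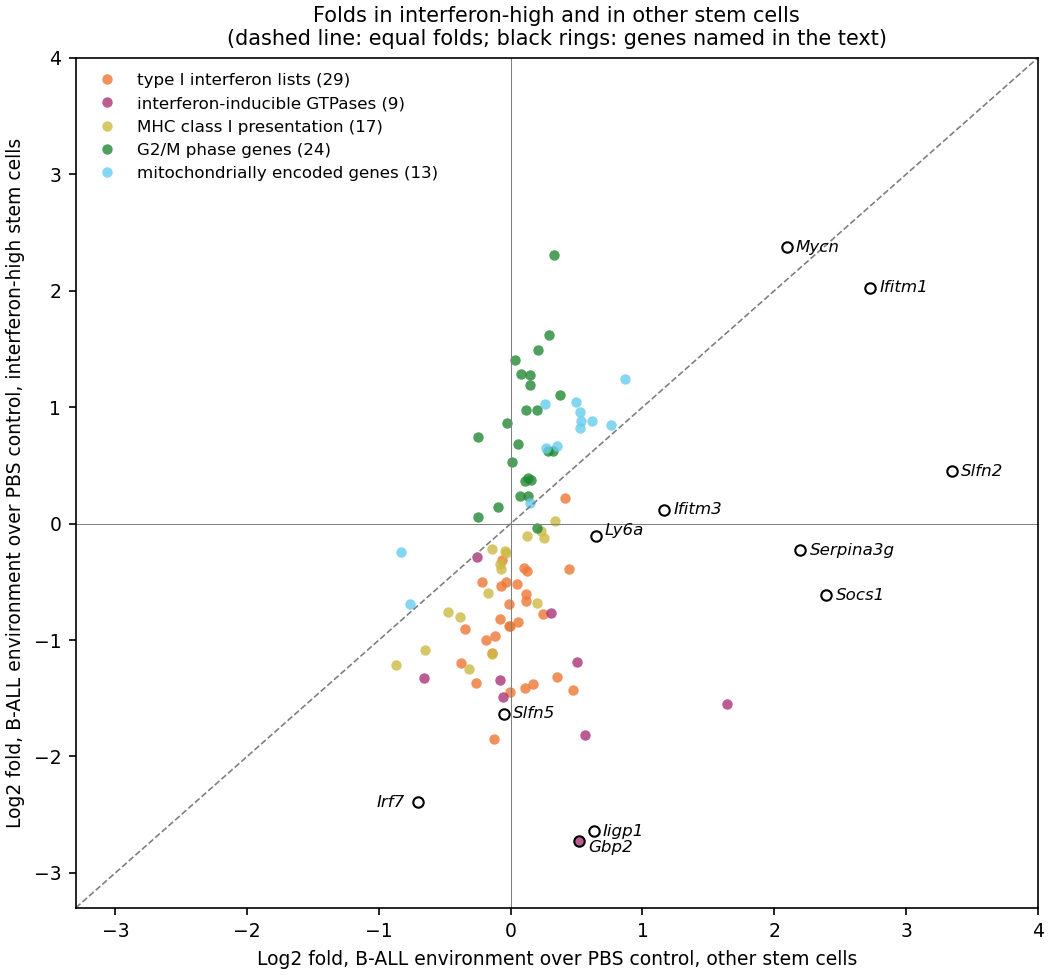
Log2 fold, B-ALL environment over PBS control, in interferon-high stem cells (vertical) against other stem cells (horizontal) for listed genes with at least 50 UMIs over both groups of interferon-high cells; both axes compare the same 2 groups of mice. Type I genes (29) and GTPases (9) lie mostly below the dashed line of equal folds, as do Serpina3g at 2.20 and -0.23 and Slfn2 at 3.35 and 0.45.

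Genes higher in B-ALL interferon-high cells were partly genes that were also higher in the other stem cells of that group. Past 2-fold, 12.5% of all genes were higher, and 1.7% with an interval above 1. Ifitm1 had 125 UMIs in control and 5630 in B-ALL, or 1184 and 4824 CPM, and every interferon-high cell of both groups held some. Its log2 fold was 2.03 (1.77 to 2.29), and in other stem cells it was 2.73 (2.67 to 2.79). Mycn, a MYC family factor, had 56.8 and 294.8 CPM, a log2 fold of 2.37 (1.24 to 3.83), with 2.09 in other stem cells.

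Feedback inhibitors of cytokine signaling were split. Socs2, which restrains STAT5 signals, had 2 UMIs in 2 of 13 control cells and 293 UMIs in 74 of 105 B-ALL cells. The log2 fold was 3.73 (1.86 to 6.78), against 3.89 in other stem cells. Cish, of the same family, had 3 and 179 UMIs, with log2 folds of 2.43 (0.86 to 4.72) and 3.38. Socs1, which restrains the interferon receptors, had 9 and 65 UMIs, a log2 fold of -0.61 (-1.63 to 0.58), against 2.39 in other stem cells, and 7 of the 9 control UMIs were in 1 cell. Of 9 tested inhibitors, 3 were higher past 2-fold and none lower, where 12.5% and 6.22% of all genes were.

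Sums of division genes were higher in B-ALL interferon-high cells, through a minority of cells. Of 48 tested G2/M genes, 46 were higher and 22 past 2-fold, where 50.7% and 12.5% of all genes were. Their summed log2 fold was 0.96 (0.81 to 1.11), against 0.11 in other stem cells. Mki67, a mark of cycling cells, had 7 UMIs in 4 of 13 control cells and 384 UMIs in 32 of 105 B-ALL cells, or 30.8% (9.09 to 61.4) and 30.5% (21.9 to 40.2) of cells. Ube2c, a mitotic ubiquitin carrier, had 0 UMIs in control and 185 in 18 B-ALL cells, which is at least 5.58-fold higher when the control sum is set to 3 UMIs, the limit that a count of 0 allows. The sums therefore differed more than the shares of cells did, and the B-ALL median G2/M score of 26.7 was below the control median of 28.0. Among interferon-high cells with fewer than 10000 UMIs, the G2/M medians were 28.0 in control and 24.1 in B-ALL. The highest of those cells had 105 and 54.4, and the part of depth in the sums was not tested. In both groups the interferon-high cells held less of these genes than other stem cells, with log2 differences of -1.40 in control and -0.55 in B-ALL for the G2/M sum.

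Mitochondrially encoded transcripts were higher in B-ALL in both classes. The per-cell median was 396.7 (242 to 533) in control and 681 (370 to 1312) in B-ALL interferon-high cells, and none of the 13 control cells lay above the B-ALL median. Other stem cells had medians of 377 and 614. For mt-Co3, a cytochrome oxidase subunit, log2 folds were 1.24 (1.13 to 1.36) and 0.87. The part of this difference in the others was not tested.

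The sorting marker Kit had 369.4 and 258.8 CPM in interferon-high cells, a log2 fold of -0.51 (-0.998 to 0.01), and Ptprc, which encodes CD45, had 255.8 and 291.3 CPM. Cd34 had 265.2 and 290.5 CPM, a log2 fold of 0.13 (-0.43 to 0.74), against -0.70 in other stem cells. A noncoding transcript, AY036118, was lower in B-ALL to the same extent in both classes, with log2 folds of -2.87 and -2.89. It therefore did not set the interferon-high cells apart. Zeb1, a zinc finger repressor, had 1 UMI in control and 137 UMIs in 66 of 105 B-ALL cells, a log2 fold of 3.63 (1.13 to 8.95), against 0.12 in other stem cells.

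Sums over genes of growth and rest had log2 folds near 0 between the groups within interferon-high cells, although single genes did not. Genes of MYC and ribosome biogenesis had summed levels of 8980 and 8506 CPM, a log2 fold of -0.08 (-0.17 to 0.02). Against other stem cells of the same group their sums were lower, with log2 differences of -0.23 in control and -0.37 in B-ALL. The median log2 difference of all tested genes was -0.07 in control and -0.02 in B-ALL. Within B-ALL, 19 of 19 were lower in interferon-high than in other stem cells. The share of all genes that were lower in that comparison was not counted. Quiescence genes had 1478 and 1571 CPM, against 1227 and 1262 CPM in other stem cells. Of 15 tested quiescence genes, 6 were higher and 8 lower in B-ALL interferon-high cells. Past 2-fold were 4 of the higher and 1 of the lower, where 12.5% and 6.22% of all genes were. Mycn, given above, is in this list, and Foxo3, a factor of stem cell rest, had 3 and 96 UMIs, a log2 fold of 1.53 (-0.06 to 3.84) that rests on few control UMIs. Stem cell genes outside the rule had a summed log2 fold of 0.16 (-0.02 to 0.35), with 13 higher and 9 lower of 22 tested.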

How the data were processed

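The authors deposited a matrix of raw UMI counts, 13978 genes by 11764 cells. Cell Ranger 4, Seurat 4.0.1 and mm10 stand in the submitters' processing notes, with no role given; the authors' cell filters and doublet removal are not given in the sources used here, and no doublet caller was run. The cell prefixes pbs and tm were taken to mean PBS control and B-ALL environment. The gene rule, members and gene lists were chosen with earlier results of these data known.

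Counts were summed over interferon-high, other stem-gated and interferon-high non-stem cells of each group and brought to one scale with TMM factors from edgeR 4.0.16 under R 4.3.3. Folds have exact conditional binomial intervals, levels exact Poisson intervals and shares Clopper-Pearson intervals, all at 95% and for counting error only (Python 3.11.15, numpy 2.4.6, pandas 2.3.3, scipy 1.17.1). With 1 sample a group as analysed, no test across replicates was run. Called means past 2-fold. Tested genes passed an edgeR filter on low counts. The fold script was tested on simulated data. DESeq2 1.42.0 gave size factors only, as an alternative. Thinning drew each cell 20 times to the UMIs of the shallowest control cell, which is also the minimum of the rule. Shares were recounted in each draw with the rule applied anew. Folds in thinned cells used the first draw only, with the cell classes kept as set at full depth.

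Named genes were the 12 of the rule; the 12 highest and 12 lowest between groups, by the interval end nearest to no change, among genes with at least 50 UMIs; the 12 highest and 8 lowest over other stem cells with at least 20 UMIs; up to 4 of each of 36 lists; and Kit, Ptprc and Cd34. Angpt1, B2m, H2-K1, Ifnar1, Irf9, Jak1, Ltb, Mllt3, Socs1 and Vwf fall outside this rule and were chosen after their values were seen. Promoters were matched by symbol. The values of 1 gene are not reported here.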

Additional observations from a re-analysis of the deposited data

Results flagged for a closer look

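In 4 gene lists the B-ALL over control folds of interferon-high and of other stem cells had opposite signs, with counting intervals that both left out 0. The difference between the classes was not tested over mice, since each group is 1 sample. The ISG15 and ubiquitin-like conjugation list had a summed log2 fold of -0.90 in interferon-high and 0.18 in other stem cells. The interferon-inducible GTPases had -1.49 and 0.13.

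Neutrophil progenitor markers had a summed log2 fold of 0.395 in interferon-high and -0.76 in other stem cells. In B-ALL interferon-high cells 194 of 252 Elane UMIs and 434 of 1541 Prtn3 UMIs were in 1 cell each, while the median cell held fewer marker UMIs in B-ALL (8.16 per 10000) than in control (15.2). Lymphoid-primed markers had 1.10 and -1.16, on 12 control and 285 B-ALL UMIs in the interferon-high cells. Of the 140 Dntt UMIs in those B-ALL cells, 68 were in 1 cell.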

How the results depend on the processing

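No paired analysis was possible because the cells carry no replicate number, and leaving out each replicate was not possible for the same reason. The share was 1.29% in control with at least 10000 UMIs (ratio 3.61). It was 9.23% and 16.9% in control and B-ALL with at least 2 of the 4 interferon genes, 1.41% and 3.74% (ratio 2.65) with at least 2 of the 8 stem genes, and 5.43% and 6.72% with at least 4. The ratio went below 1 with all 4 interferon genes (1.12% in B-ALL, ratio 0.712), with the other 4 genes Ifit3, Isg15, Oasl2 and Usp18 (1.54%, 0.623) and in thinned cells (2.23%, 0.693); the cause was not tested.

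Between groups within interferon-high cells, type I and GTPase sums stayed lower in B-ALL in every setting run. Their log2 folds were -0.59 and -0.85 in thinned cells, -0.60 and -1.19 with all 4 genes, and -0.25 and -0.57 with the other 4 genes, which kept 4 of 11 control and 17 of 33 B-ALL cells of the main set. For folds, the thinned cells were those chosen at full depth, so selection by depth remained in that setting. GTPases had -1.06 without Ly6a in the rule, -1.26 as a mean of cells and -1.20 without the Pf4-bearing control cell, a setting added after seeing the data. Genes lower past 2-fold with an interval below 1 numbered 194, against 64 in thinned cells and 112 with all 4 genes; both settings hold fewer UMIs.

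For interferon-high over other stem cells, type I differences were 1.90 in control and 1.01 in B-ALL with total counts, 1.02 in B-ALL with DESeq2 size factors, 1.53 and 0.89 in thinned cells, 1.94 and 1.34 with all 4 genes, and 1.52 and 1.25 with the other 4. GTPases in control had 2.15 in thinned cells, 3.07 with all 4 genes (1.73 in B-ALL), 1.97 with the other 4 (1.29 in B-ALL), 2.38 without Ly6a, 2.44 without the Pf4-bearing cell and 2.52 as a mean of cells. In control, 259 genes were higher and 212 lower, against 133 and 136 in thinned cells, 307 and 149 with total counts, 303 and 153 with DESeq2 size factors and 112 lower with the other 4 genes. In B-ALL, 329 were higher and 137 lower, against 216 higher in thinned cells and 241 lower with all 4 genes. Total counts moved the median of all genes in control from -0.07 to 0.04.

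Single genes that turned sign between groups were Cmpk2 (1.21), Irf8 (0.53), Ube2l6 (0.15) and Elane (-0.42) in thinned cells; Elane with all 4 genes (-2.56), below the 95th percentile of depth (-0.89) and as a mean of cells (-0.14); Csf2rb (0.30), Cxcl10 (1.55), Dntt (-1.05) and Serpina3f (0.22) without Ly6a; and Csf2rb (0.50) and Cxcl10 (1.59) without the Pf4-bearing cell. With the other 4 genes these were Dntt (-4.11), Elane (-3.19), Nfkbie (1.46), Phf11b (0.10), Rrm2 (-1.36) and mt-Nd3 (-0.21). Of 1657 recomputed folds of named genes, 1519 stayed within the interval of the main fold, 119 fell outside it and 19 turned sign. A turn of sign, here and for the genes just named, was counted only where the main fold was past 2-fold and its interval left out no change. Values of the main comparisons were counted apart. Of these, 108 stayed within the interval or a set band around the main value, 45 moved beyond it and 3 turned direction.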
